A study of Mus musculus with 6 samples.

Results

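The leukocyte miRNAs described here are the 2 arms of the miR-142, miR-223, miR-150 and miR-342 hairpins, together with miR-142b, which is annotated on the strand opposite miR-142. They were taken by name from the deposited table, where all 9 were found among 620 rows. The rule itself uses no measured value, but earlier results of these data were known when it was set. Small RNA had been sequenced from vesicles that mouse peripheral blood mononuclear cells (PBMCs), a fraction of lymphocytes and monocytes, release. The 3 control libraries are labelled untreated, the other 3 IS-stimulated, and all 6 wild type (WT). The sources used here do not spell out IS and give no strain, age, dose or duration. The labels also do not say whether replicates are separate animals or cultures, so p-values measure only the spread among these samples, and that spread may be technical.

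A miRNA is cut from a hairpin precursor as a short duplex, and usually the strand of 1 arm (5p or 3p) is kept by an Argonaute protein while the other is degraded. The kept strand pairs with target mRNAs mainly through its seed, the bases near its 5′ end. miR-142 is made throughout the blood lineages, miR-223 in neutrophils and monocytes, where its 3p arm is the usual guide and restrains granulocyte activation, and miR-150 in mature B, T and NK cells, where its 5p arm targets the transcription factor Myb. miR-342 is carried in an intron of Evl, a gene of actin assembly, and is common in lymphocytes.

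The mature sequences are shown because arms of 1 hairpin have different seeds and so different targets. They are RefSeq entries of build GRCm38.p6, 5′ to 3′, with the seed (bases 2 to 8) in capitals. Of the 9 members, 8 matched an entry by name. miR-150-5p is the member named only.
miR-142a-5p: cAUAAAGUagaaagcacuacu
miR-142a-3p: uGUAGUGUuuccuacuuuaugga
miR-142b: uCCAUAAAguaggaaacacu
miR-223-5p: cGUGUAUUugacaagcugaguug
miR-223-3p: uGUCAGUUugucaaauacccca
miR-150-3p: cUGGUACAggccugggggauag
miR-342-5p: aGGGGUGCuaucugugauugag
miR-342-3p: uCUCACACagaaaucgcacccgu

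The 8 seeds are all different. Of the 620 rows, 483 had a RefSeq sequence, and no other of these carried a seed of a member. miR-142b and miR-142a-5p share a run of 10 bases, CAUAAAGUAG, which starts at base 3 of miR-142b and at base 1 of miR-142a-5p, so that their seeds are offset.

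The hairpins whose arm use is compared below are shown next, with the mature arms in capitals (5p first).
Mir142: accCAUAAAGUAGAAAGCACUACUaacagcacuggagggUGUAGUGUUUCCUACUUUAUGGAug
Mir223: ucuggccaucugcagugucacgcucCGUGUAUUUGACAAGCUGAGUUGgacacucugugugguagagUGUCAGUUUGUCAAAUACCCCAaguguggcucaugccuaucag
Mir342: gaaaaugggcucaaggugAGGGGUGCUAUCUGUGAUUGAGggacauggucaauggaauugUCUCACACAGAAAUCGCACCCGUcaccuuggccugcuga

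Mir142 lies at chr11:87756864-87756927 on the plus strand, in an intron of its host transcript Mir142hg. Mir223 is at chrX:96242817-96242926 (plus) in an exon of the non-coding gene F630028O10Rik. Mir150 is at chr7:45121757-45121821 (plus), where GENCODE M21 annotates no other gene, and Mir342 at chr12:108658620-108658718 (plus) in an intron of Evl. Coordinates are those of GRCm38, and the authors' build may differ.

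The row of miR-142b repeated that of miR-142a-3p in every library, with 76, 76 and 319 counts for control 1 to 3 and 42, 351 and 53 counts for IS 1 to 3. Mir142b is annotated on the minus strand over the same place (chr11:87756841-87756955). The reverse complement of miR-142a-3p, uccauaaaguaggaaacacuaca, begins with all 20 bases of miR-142b. Both names therefore stand for 1 set of reads, whose strand the table does not tell, and miR-142b is left out of every sum and count below unless named.

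Library totals ran from 125731 (IS 3) to 435468 counts (control 3), so that 1 count stood for 2.30 to 7.95 CPM, that is counts per 1000000 counts of the library. A floor of 3 counts lay at 6.89 to 23.9 CPM. Without molecular identifiers, floors and intervals cover counting error only. Reads are counted whole per mature miRNA with no length term, so levels of different miRNAs are compared as CPM.

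The miR-142 hairpin supplied most reads of the set, nearly all from its 5p arm. The level of miR-142a-5p was 10095, 4953 and 20128 CPM in control 1 to 3 and 10757, 23909 and 6212 CPM in IS 1 to 3. It ranked between 12th (IS 2) and 26th (control 2) of the 620 rows. Control 3 and IS 2 were the highest libraries, control 2 and IS 3 the lowest, and the groups overlapped throughout. The control libraries averaged 11725 ± 7718 CPM and the IS libraries 13626 ± 9191 CPM (SD, n = 3 in each, as for all means below).

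For miR-142a-3p the levels were 281, 323 and 733 CPM in control 1 to 3 and 281, 1106 and 422 CPM in IS 1 to 3. The same libraries, control 3 and IS 2, were again the highest. The means were 446 ± 249 CPM in control and 603 ± 441 CPM in IS.

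The 2 arms of miR-223 were both scarce. The level of miR-223-5p was 185, 1233 and 87.3 CPM in control 1 to 3 and 121, 34.7 and 557 CPM in IS 1 to 3. Its highest libraries were control 2 and IS 3, the lowest for miR-142a-5p, and its lowest were IS 2 and control 3, the highest for miR-142a-5p. The level of miR-223-3p, the arm usually kept in myeloid cells, was 29.6, 208 and 68.9 CPM in control 1 to 3 and 87.1, 18.9 and 255 CPM in IS 1 to 3, from only 6 to 49 counts. IS 3 and control 2 were again on top and IS 2 was lowest.

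Of the lymphoid pair, miR-150-5p had 92.5, 242 and 836 CPM in control 1 to 3 and 101, 1094 and 429 CPM in IS 1 to 3. Its libraries stood in the same order as those of miR-142a-3p, with IS 2 and control 3 highest and IS 1 and control 1 lowest. The level of miR-150-3p was 0, 17.0 and 55.1 CPM in control 1 to 3 (0, 4 and 24 counts) and 0, 37.8 and 0 CPM in IS 1 to 3 (12 counts in IS 2). It was above the floor of 3 counts in 3 of the 6 libraries, and it was the only member that did not pass the filter on low counts.

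The miR-342 arms, like those of miR-142, spread less over the libraries than miR-223 and miR-150-5p. The level of miR-342-5p was 107, 251 and 133 CPM in control 1 to 3 and 141, 142 and 461 CPM in IS 1 to 3, and IS 3 stood apart at the top. For miR-342-3p the levels were 189, 191 and 89.6 CPM in control 1 to 3 and 134, 192 and 231 CPM in IS 1 to 3. The highest miR-342-3p library exceeded the lowest 2.58-fold, against 35.6-fold for miR-223-5p.

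**Figure D1:**
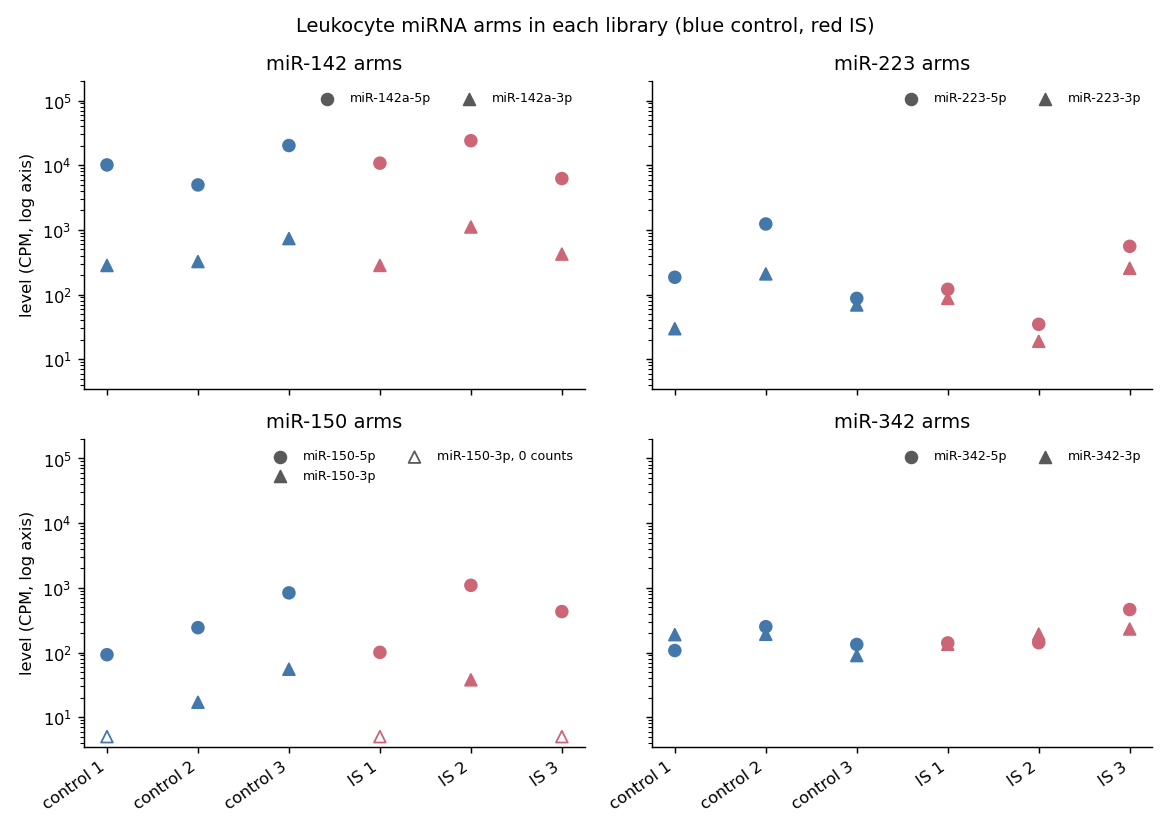
Level of each arm (vertical, CPM on a log axis) in each library (horizontal), with circles for 5p and triangles for 3p arms, blue for control and red for IS, and hollow triangles for the 3 libraries with 0 counts of miR-150-3p, drawn at an arbitrary height. miR-142 and miR-150 peak in control 3 and IS 2, and miR-223 peaks in control 2 and IS 3.

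In control the mean levels ordered as miR-142a-5p, miR-223-5p (502 ± 635 CPM), miR-142a-3p, miR-150-5p (390 ± 393), miR-342-5p (164 ± 76.5), miR-342-3p (157 ± 58.0), miR-223-3p (102 ± 93.9) and miR-150-3p (24.0 ± 28.2 CPM). In IS the order was miR-142a-5p, miR-142a-3p, miR-150-5p (541 ± 506), miR-342-5p (248 ± 185), miR-223-5p (237 ± 280), miR-342-3p (186 ± 48.6), miR-223-3p (120 ± 121) and miR-150-3p (12.6 ± 21.8 CPM). The first step was the clear one: the lowest value of miR-142a-5p in any library (4953 CPM) was 4.02-fold above the highest value of any other member (1233 CPM, miR-223-5p in control 2). Below it, each neighbouring pair in either order had overlapping values. miR-142a-5p made up 66.8% (control 2) to 92.6% (IS 1) of the reads of the set.

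Taken as shares of the library, the 8 distinct members held 1.10, 0.742 and 2.21% of the counts for control 1 to 3 and 1.16, 2.65 and 0.857% for IS 1 to 3. The 6 arms of miR-223, miR-150 and miR-342 together held 0.0583 to 0.214%. As a set the members were thus present in every library, but the red cell and liver lists held more in all 6. The muscle list (0.0311 to 0.470%) and the epithelial list (0.0222 to 0.116%) held less. The red cell list (miR-451a, miR-144 and miR-486, with repeated rows counted once) held 9.36 to 22.2%, and the liver list (miR-122-5p, miR-192-5p and miR-194-5p) 2.44 to 11.3%. A list of other myeloid and inflammatory miRNAs, described below, held 2.34 to 6.36%. It exceeded the liver list in control 2 (6.36 against 2.44%) and IS 3 (5.39 against 3.29%) and lay below it in control 1, control 3, IS 1 and IS 2. Reads of miR-451a, a red cell miRNA, outnumbered those of miR-142a-5p 5.87-fold (IS 2) to 16.7-fold (IS 3). Reads of the hepatocyte miRNA miR-122-5p did so 1.39-fold (IS 2) to 11.1-fold (control 1).

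The libraries that stood high in the members stood high elsewhere too. Control 3 and IS 2, on top for miR-142 and miR-150, had the largest totals (435468 and 317323 counts) and the largest red cell shares (18.6 and 22.2%). Control 2 and IS 3, on top for miR-223, had the largest shares of the vessel wall and platelet list (3.26 and 3.54%, against 0.955 to 2.72% in the rest). Control 1 and IS 1, lowest for miR-150-5p, had the largest liver shares (11.3 and 10.8%). The part of depth and of these other sources in the members' levels was not tested. Fewer vesicles from a cell type and less of its miRNA per vesicle cannot be told apart in these samples.

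Arm use was compared within each library, which needs no scaling. For miR-142 the 5p arm took 97.3% (95% Wilson interval 96.6 to 97.8), 93.9% (92.4 to 95.1) and 96.5% (96.1 to 96.8) of the reads of both arms in control 1 to 3. In IS 1 to 3 it took 97.4% (96.6 to 98.1), 95.6% (95.1 to 96.0) and 93.6% (91.8 to 95.1). Reads of the 5p arm were thus 14.7 to 38.2 times those of the 3p arm, a 2.59-fold span of the arm ratio, and the 3p share ran from 2.55 to 6.35%. Control 2 and IS 3, where miR-142a-5p was lowest, had the lowest shares.

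For miR-223 the 5p arm also had more reads than the 3p arm in all 6 libraries, although the 3p arm is the usual guide. Its share was 86.2% (75.1 to 92.8), 85.5% (81.4 to 88.9) and 55.9% (44.1 to 67.1) in control 1 to 3, out of 58, 339 and 68 reads. In IS 1 to 3 it was 58.1% (40.8 to 73.6), 64.7% (41.3 to 82.7) and 68.6% (59.1 to 76.8), out of 31, 17 and 102 reads. The interval lay above 50% in control 1, control 2 and IS 3. In the other 3 libraries it reached below 50%, so an excess of the 5p arm was not detectable there at this depth.

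The miR-150 reads were nearly all 5p: 93.4% (84.3 to 97.4) in control 2, 93.8% (91.0 to 95.8) in control 3 and 96.7% (94.2 to 98.1) in IS 2. In control 1, IS 1 and IS 3 all of the 25, 15 and 54 reads were 5p. By the floor of 3 counts this allows a 3p share of up to 12, 20 and 5.56%, and the Wilson intervals of the 5p share reach slightly lower, to 86.7, 79.6 and 93.4%. These limits lie above or among the 3p shares measured elsewhere (3.34 to 6.56%), so a lack of the 3p arm cannot be read from them.

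The arms of miR-342 were nearly balanced, and which arm led differed between libraries. The 5p share was 36.3% (26.6 to 47.2), 56.7% (47.1 to 65.8) and 59.8% (49.8 to 69.0) for control 1 to 3 and 51.2% (36.5 to 65.7), 42.5% (33.5 to 52.0) and 66.7% (56.2 to 75.7) for IS 1 to 3. Only in control 1 (3p ahead) and IS 3 (5p ahead) did the interval exclude 50%.

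No arm share differed between the groups beyond the spread of the libraries. The mean 5p share of miR-142 was 95.9 ± 1.79% in control and 95.6 ± 1.90% in IS (exact two-sided permutation p = 0.8). For miR-223 it was 75.9 ± 17.3% and 63.8 ± 5.34% (exact p = 0.4), for miR-150 95.8 ± 3.68% and 98.9 ± 1.93% (exact p = 0.4), and for miR-342 50.9 ± 12.8% and 53.4 ± 12.3% (exact p = 0.8). With 3 libraries against 3 the smallest p this test allows is 0.1, and all 10 tests of shares and ratios had a Benjamini-Hochberg adjusted p of 1. The largest of the 4 differences, -12.1 percentage points for miR-223, was -22.1 without control 3 and -6.91 without control 1.

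**Figure D2:**
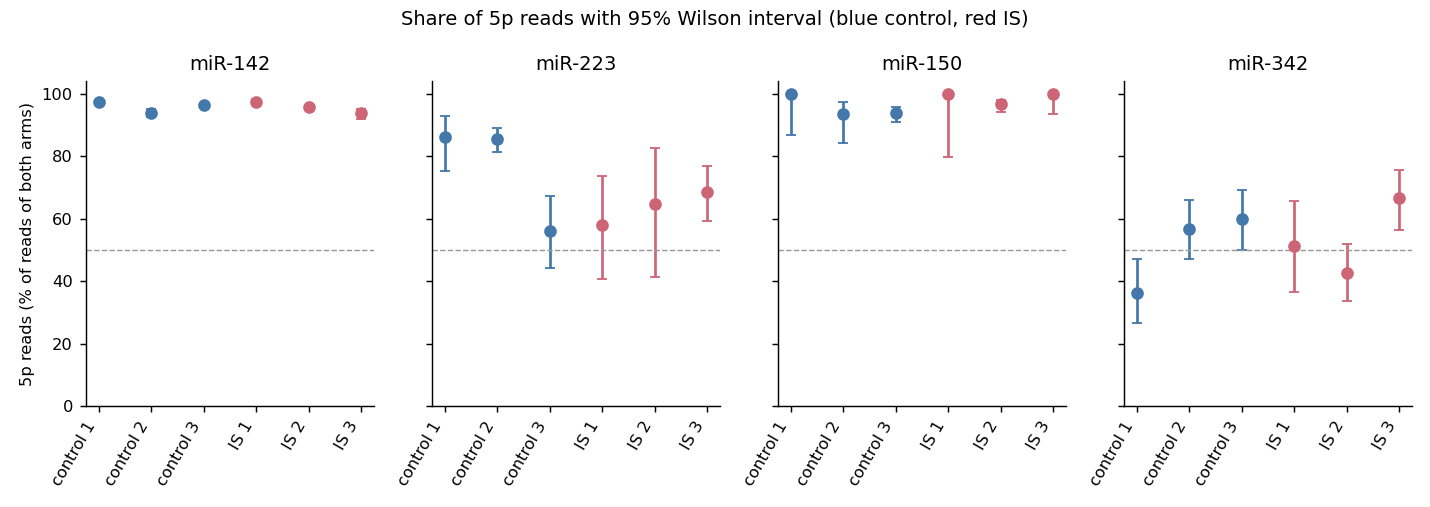
Share of 5p reads among the reads of both arms (vertical, percent) for each hairpin and library (horizontal), blue for control and red for IS, with 95% Wilson intervals and a dashed line at 50%. miR-142 and miR-150 stay above 93% in every library, miR-223 lies between 55.9 and 86.2%, and miR-342 lies on both sides of the line.

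The ratio of the myeloid miR-223-3p to the lymphoid miR-150-5p varied more between libraries than the level of any tested member (at most 35.6-fold, miR-223-5p). There were 0.320, 0.860 and 0.0824 reads of miR-223-3p for each read of miR-150-5p for control 1 to 3 and 0.867, 0.0173 and 0.593 for IS 1 to 3. This is a 50.1-fold span, with IS 2 and control 3 far below the rest in their own groups. The IS 2 value rests on 6 reads of miR-223-3p. On the log2 scale (0.5 added to each count) the ratio was -1.79 ± 1.69 for control and -2.23 ± 3.05 for IS, a difference of -0.44 (exact permutation p = 0.9). Without IS 2 the difference was 1.32.

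With both arms summed, miR-223 over miR-150 and miR-342 together was 0.552, 2.05 and 0.140 for control 1 to 3 and 0.554, 0.0366 and 0.723 for IS 1 to 3. Control 2 was the only library with more reads of miR-223 than of the lymphoid pair. The ratios of control 1 and IS 1 lay close together.

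Against miR-342-3p in place of miR-150-5p, the miR-223-3p ratio was 0.157, 1.09 and 0.769 for control 1 to 3 and 0.650, 0.0984 and 1.10 for IS 1 to 3. The span was 11.2-fold, below that of miR-223-3p alone (13.5-fold). Control 3, low against miR-150-5p, was not low here. The log2 ratio was -0.95 ± 1.45 for control and -1.24 ± 1.78 for IS (exact permutation p = 0.7).

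The lymphoid miRNAs did not keep a fixed proportion to each other. Reads of miR-150-5p per read of miR-342-3p were 0.490, 1.27 and 9.33 for control 1 to 3 and 0.750, 5.69 and 1.86 for IS 1 to 3. Control 3 and IS 2 stood above the other 4 libraries. The log2 ratio was 0.84 ± 2.15 for control and 0.99 ± 1.45 for IS (exact permutation p = 1).

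Against the pan-leukocyte miRNA, reads of miR-142a-5p per read of miR-223-3p were 341, 23.8 and 292 for control 1 to 3 and 123, 1265 and 24.4 for IS 1 to 3. Control 2 and IS 3 had nearly the same low value, and IS 2 the highest. The log2 ratio was 7.02 ± 2.13 for control and 7.22 ± 2.82 for IS (exact permutation p = 0.9).

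Per read of miR-150-5p there were 109, 20.4 and 24.1 reads of miR-142a-5p for control 1 to 3 and 107, 21.9 and 14.5 for IS 1 to 3. Here control 1 and IS 1 stood apart, at nearly equal values, from the other 4 libraries. The log2 ratio was 5.22 ± 1.32 for control and 5.00 ± 1.50 for IS (exact permutation p = 0.7). Per read of miR-342-3p there were 25.9 to 225 reads of miR-142a-5p, with log2 ratios of 6.07 ± 1.58 and 5.99 ± 1.14 (exact permutation p = 1).

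**Figure D3:**
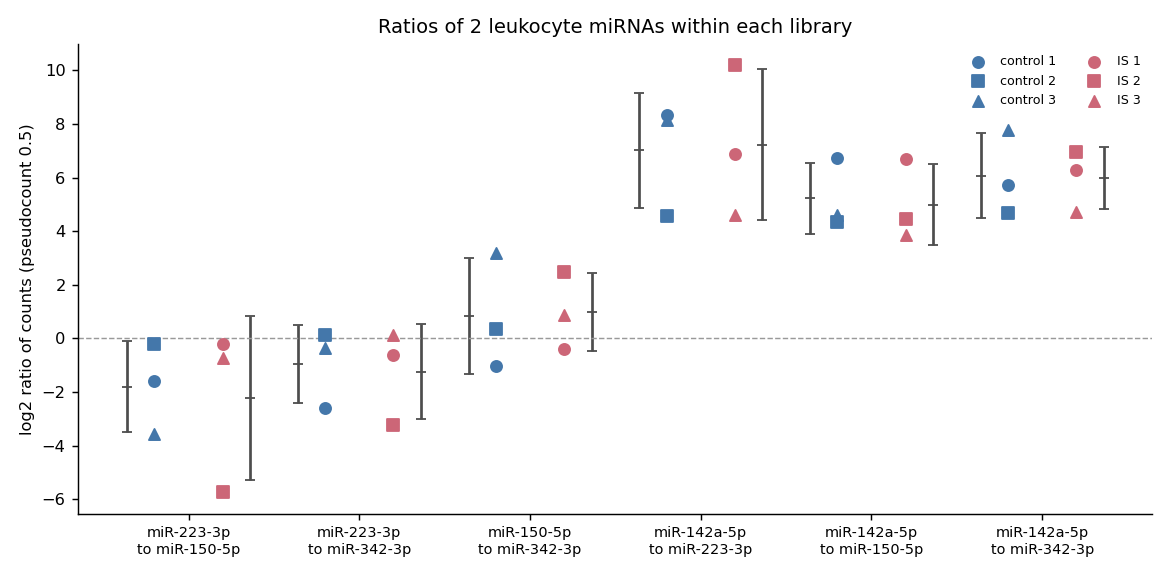
Log2 ratio of the counts of 2 miRNAs (vertical, 0.5 added to each count) for 6 pairs (horizontal), with 1 symbol per library, blue for control and red for IS, and grey bars for the mean ± SD of 3 libraries. The groups overlap in every pair, and IS 2 is the lowest point of miR-223-3p to miR-150-5p and the highest of miR-142a-5p to miR-223-3p.

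Whether IS stimulation went with a difference in these miRNAs was asked with the edgeR quasi-likelihood test on all rows that passed a filter on low counts, with Benjamini-Hochberg adjustment. Of the 8 members tested (miR-142b included), 0 passed an adjusted p of 0.05, and for 0 was the unadjusted p under 0.05. Over all 206 rows tested, 0 passed (0%) and 3 had an unadjusted p under 0.05 (1.46%). DESeq2 called 0 of 618 rows with 14 at an unadjusted p under 0.05 (2.27%), none of them a member, and limma called 0 of 206. The groups overlapped in 8 of 8 tested members, against 3 rows without overlap among the 206 (1.46%).

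The pan-leukocyte arms had log2 fold changes (IS minus control) of 0.32 (SE 0.67, 95% interval -1.15 to 1.79) for miR-142a-5p and 0.52 (SE 0.66) for miR-142a-3p, both with an edgeR adjusted p of 0.996. That of miR-142a-5p was -0.43 without IS 2 and 0.82 without control 3, and that of miR-142a-3p -0.39 and 0.99. The sign therefore turned with the library left out.

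The lowest log2 fold change among the members belonged to the myeloid miR-223-5p, at -1.19 (SE 1.05, 95% interval -3.52 to 1.14, unadjusted p = 0.285, edgeR adjusted p = 0.996). It was 0.29 without control 2, the library with 290 of its 477 counts, and -2.98 without IS 3. The other arm of the same hairpin, miR-223-3p, had 0.18 (SE 1.02, interval -2.07 to 2.44), which was -1.23 without IS 3 and 0.88 without control 2.

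Among the lymphoid miRNAs the log2 fold change was 0.59 for miR-150-5p (SE 0.89, interval -1.38 to 2.56), 0.53 for miR-342-5p (SE 0.68, interval -0.98 to 2.04) and 0.20 for miR-342-3p (SE 0.68, interval -1.30 to 1.70). It was -0.65 without IS 2 for miR-150-5p, -0.38 without IS 3 for miR-342-5p and -0.12 without IS 3 for miR-342-3p. Of the 7 distinct members tested, 6 had a value above 0, with a median of 0.32, where 109 of all 206 rows were above 0 with a median of 0.02. For both arms of miR-223, miR-150-5p and miR-342-5p the intervals reach beyond 2 on the log2 scale in at least 1 direction, so differences of that size lie within the error of these libraries.

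**Figure D4:**
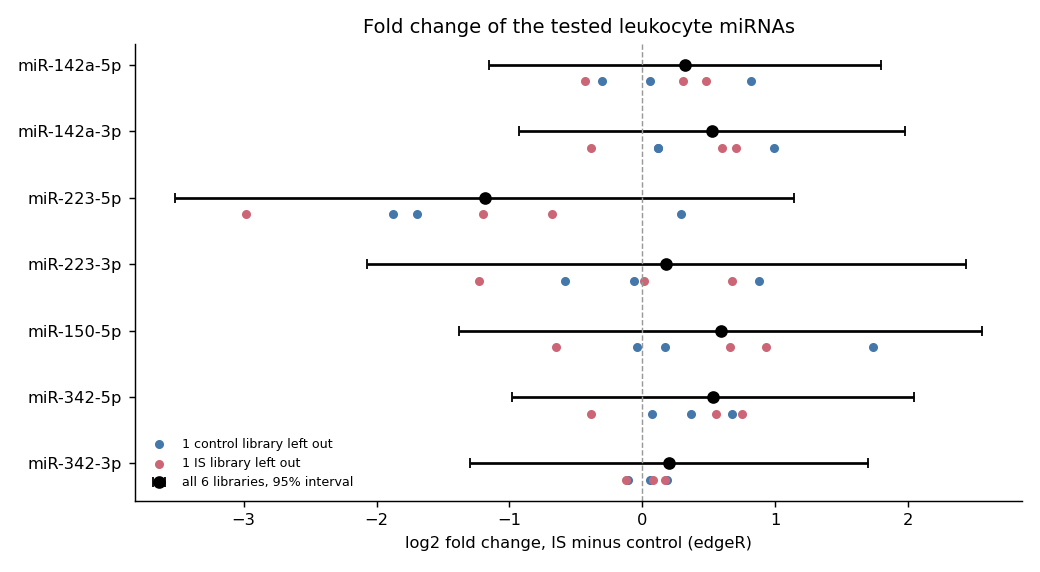
Log2 fold change of IS against control (horizontal, edgeR) for the 7 distinct tested members (vertical), with black points and 95% intervals for all 6 libraries and small points below for each fit with 1 control (blue) or 1 IS (red) library left out. All intervals include 0, and for each member at least 1 small point lies on the other side of 0 from the black one.

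The spread within groups was wide for most members. The coefficient of variation in control ran from 37.1% (miR-342-3p) to 127% (miR-223-5p) over the 7, with a median of 65.8% against 50.9% for all 206 rows tested. In IS it ran from 26.2% (miR-342-3p) to 118% (miR-223-5p), with a median of 74.5% against 57.7%. Of the 7 members, 5 in control and 6 in IS were above the median of all tested rows. The edgeR biological coefficient of variation, which borrows from all rows, had a median of 61.6% for the members and 65.7% for all. By this measure miR-223-5p (87.1%), miR-223-3p (83.4%) and miR-150-5p (77.5%) lay above the median of all rows. The miR-142 and miR-342 arms lay below it, at 60.2 to 61.6%.

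Which other miRNAs followed the members over the 6 libraries was read from the root mean square difference of log2(CPM + 1), each row first centred on its own mean. Smaller values mean more similar profiles, and the measure is a description over 6 libraries that share their depth and composition. Nearest to miR-142a-5p were miR-22-3p (0.33), miR-133a-3p (0.35) and miR-351-5p (0.38), where the median over all other tested rows was 1.22. miR-22-3p had 1531, 820 and 5530 CPM in control 1 to 3 and 1669, 5874 and 1129 CPM in IS 1 to 3, with the same high and low libraries. miR-133a-3p, a muscle miRNA, was scarce at 23.9 to 131 CPM, as was miR-351-5p at 23.9 to 94.5 CPM. In IS 3 both stood at the floor of 3 counts (23.9 CPM). The rows named for each arm are those with the 3 smallest differences, so values below the median follow from the choice.

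Nearest to miR-223-5p was miR-370-3p (0.43), of the imprinted Dlk1-Dio3 cluster, followed by miR-409-3p of the same cluster (0.85) and miR-30d-5p (0.91), against a median of 1.90. miR-370-3p had 351, 1951 and 207 CPM in control 1 to 3 and 248, 145 and 1225 CPM in IS 1 to 3, highest in control 2 and IS 3 like miR-223-5p. It lay nearer to miR-223-5p than miR-223-3p did (0.93).

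Nearest to miR-150-5p were miR-29a-3p (0.49), miR-495-3p (0.53) and miR-107-3p (0.55), against a median of 1.54. Of these, miR-495-3p was scarce in control 1 (22.2 CPM) and IS 1 (26.8 CPM). Nearest to miR-342-5p were miR-382-5p (0.36), miR-148b-3p (0.37) and miR-192-5p (0.39), against 0.96. Among the members themselves the closest pair was the 2 arms of miR-142 (0.54), then the 2 arms of miR-342 (0.61), then miR-142a-3p with miR-150-5p (0.72). The most distant was miR-223-5p with miR-150-5p (2.54), close to its distance from miR-142a-5p (2.49). The miR-342 arms were farther from miR-150-5p (1.42 for 5p and 1.51 for 3p) than miR-342-5p was from miR-223-3p (0.86).

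**Figure D5:**
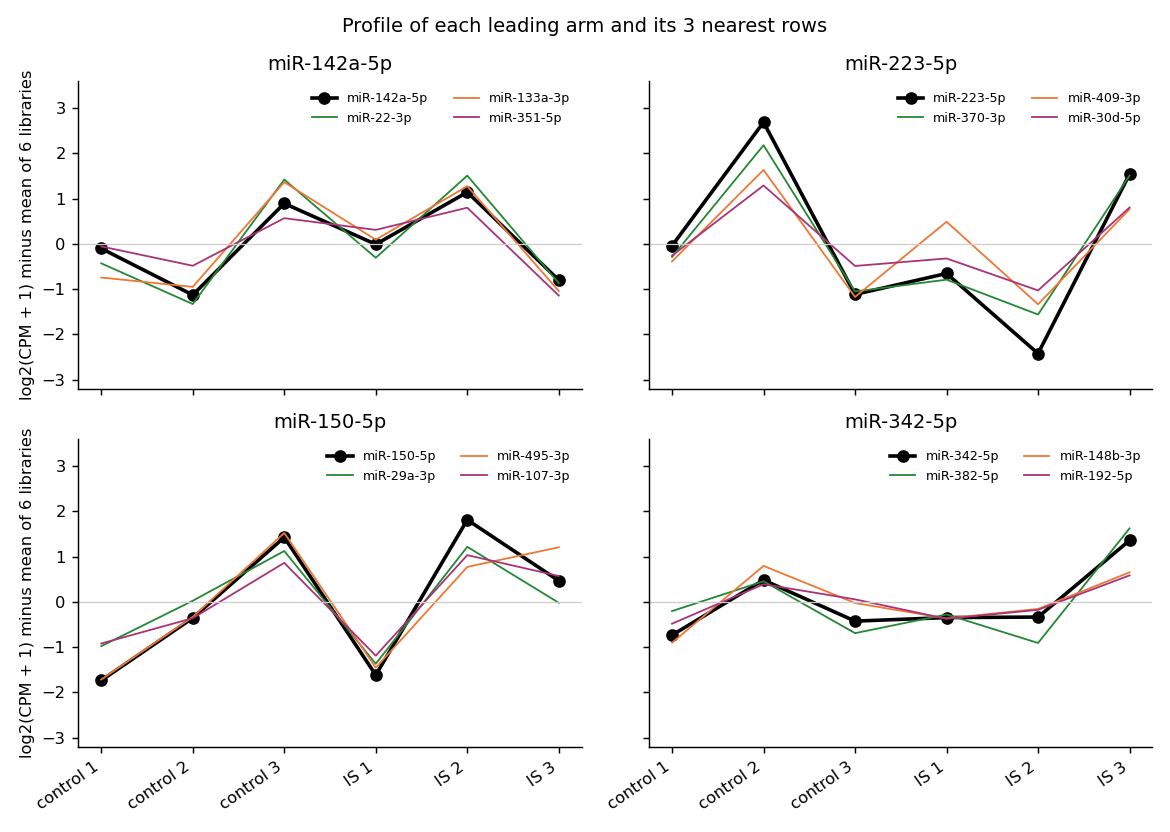
Centred log2 level (vertical) in each library (horizontal) for the more abundant arm of each hairpin (black) and the 3 tested rows nearest to it (colours), with lines that only join values of 1 row. miR-142a-5p lies above its mean in control 3 and IS 2 and below it in control 2 and IS 3, and miR-223-5p the reverse.

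The other miRNAs of white cells were read from lists chosen for their known cell types. Of 10 other myeloid and inflammatory miRNAs, 8 were in the table and 5 were tested, with 0 called, 2 above 0 and 3 below 0 and a median log2 fold change of -0.49. miR-21a-5p, induced in inflammation, averaged 40660 ± 13455 CPM in the control and 27968 ± 16772 CPM in the IS libraries, with a log2 fold change of -0.57 (SE 0.50). miR-146a-5p, which dampens Toll-like receptor signalling, had 0.29 (SE 0.58) and miR-23a-3p 0.19 (SE 0.48).

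Of 7 other lymphocyte miRNAs, all were in the table and 4 were tested, with 0 called, 2 above 0 and 2 below 0 and a median of 0.09. miR-155-5p, which lymphocytes raise on activation, had 48.1, 85.0 and 312 CPM in control 1 to 3 and 0, 350 and 159 CPM in IS 1 to 3, so that its highest libraries were those of miR-150-5p. miR-181a-5p, which tunes T cell receptor signalling, averaged 857 ± 286 CPM in the control and 823 ± 535 CPM in the IS libraries. miR-181d-5p had a log2 fold change of 1.51 (SE 0.71, edgeR adjusted p = 0.996), and its 3 IS values lay above its 3 control values. The groups were without overlap in 3 of all 206 rows tested (1.46%). Its relatives miR-181a-5p and miR-181b-5p had log2 fold changes of -0.10 and -0.13.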

How the data were processed

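The authors deposited 1 table of 620 miRNAs (33 of them numbered as predicted) with a read count and a TPM value per library, per the file headers. Each deposited TPM is its count per 1000000 counts of the library (largest difference 4.8e-10) and is called CPM here. Kits were exoRNeasy Maxi for RNA and NEBNext Multiplex Small RNA for libraries, per the labels' protocols. The submitters' processing notes list CASAVA 1.8 and Bowtie. The sources used here do not give the build, the miRBase release, the filters or the use of strand in counting.

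The library names gave the groups and replicate numbers. Counts were fitted with edgeR's quasi-likelihood F test (TMM factors, filterByExpr with minimum count 10 and minimum total 15, group as the only term), which kept 206 rows with 99.7% of the counts. Adjustment ran over all rows tested. The SE is the absolute log2 fold change divided by the square root of F. Arm shares (10 or more reads of both arms per library) and log2 ratios (pseudocount 0.5) were compared with exact two-sided permutation tests, and the 10 p-values were adjusted together. Repeated rows (13 pairs) agreed in each library within 2 counts or 6% and had 50 or more counts in all. The edgeR script was tested on simulated data with less spread than these libraries, which does not measure its power here.

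The members, lists and tests were chosen with earlier results of these data known. The text names all members, the 3 rows most like each leading arm, up to 3 abundant tested rows per list, and miR-451a and miR-122-5p. Alternatives were RLE factors, library totals, other filters, a replicate block, each library left out, repeated rows left out, DESeq2, limma on log2 TPM, other pseudocounts, a minimum of 1 read and a log2 arm ratio. Software was Python 3.11.15 with scipy 1.17.1 and matplotlib 3.10.9, and R 4.3.3 with DESeq2 1.42.0, limma 3.58.1 and edgeR 4.0.16.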

Additional observations from a re-analysis of the deposited data

How the results depend on the processing

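The count of miRNAs past the threshold was 0 under every alternative run, with 0 members called in any. With 1 library left out and the filter and scaling refitted, the log2 fold change lay between -0.43 and 0.82 for miR-142a-5p, -0.39 and 0.99 for miR-142a-3p and its repeat miR-142b, -2.98 and 0.29 for miR-223-5p, -1.23 and 0.88 for miR-223-3p, -0.65 and 1.73 for miR-150-5p, -0.38 and 0.75 for miR-342-5p, and -0.12 and 0.19 for miR-342-3p. Refitting moved the median of all tested rows from 0.02 to between -0.27 and 0.05, which is part of these values. With the filter and scaling held at those of all 6, the sign turned without control 2 for miR-142a-5p (-0.0603) and miR-223-5p (0.50), and without IS 2 for miR-142a-5p (-0.36), miR-142a-3p and miR-142b (-0.34) and miR-150-5p (-0.62). It also turned for miR-223-3p without control 1 (-0.21), control 3 (-0.0639) or IS 3 (-0.68), for miR-342-5p without IS 3 (-0.0037) and for miR-342-3p without control 3 (-0.13). Under the alternatives that kept all libraries, miR-223-3p alone took the other sign, at -0.0026 with limma on log2(TPM + 0.5).

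With 1 library left out, the difference in the 5p share (percentage points) lay between -1.33 and 0.63 for miR-142 and between -4.82 and 8.02 for miR-342, and kept its sign for miR-223 (-22.1 to -6.91) and miR-150 (1.98 to 5.26). The difference in log2 ratio lay between -1.45 and 1.32 for miR-223-3p to miR-150-5p, -1.11 and 0.72 for miR-223-3p to miR-342-3p, -0.78 and 1.33 for miR-150-5p to miR-342-3p, -1.28 and 1.52 for miR-142a-5p to miR-223-3p, -1.08 and 0.53 for miR-142a-5p to miR-150-5p, and -0.77 and 0.79 for miR-142a-5p to miR-342-3p. The cause of these turns was not tested. Other pseudocounts and the log2 arm ratio kept every sign.

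The labels do not say whether the replicate numbers pair the libraries. Deviations of same-numbered libraries from their group means had correlations of 0.314, -0.327 and -0.054, too few values to decide it. These values and the replicate block look at same-numbered pairs only. Levels of miR-142a-5p lay closest for control 1 with IS 1 (10095 and 10757 CPM). Control 2 lay closest to IS 3 (4953 and 6212 CPM) and control 3 to IS 2 (20128 and 23909 CPM). miR-342-3p did not match so, with 89.6 CPM in control 3 and 192 CPM in IS 2. Whether libraries are matched across numbers was not tested, and the main p-values treat them as unpaired. With the replicate block the count past the threshold was 0, and 0 had an unadjusted p under 0.05, against 3 without it. Depth limits miR-150-3p and miR-223-3p most, with as few as 0 and 6 counts in a library.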

Other observations

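Markers of cell types outside the PBMC fraction were also read in the same libraries. In these lists 0 rows passed the edgeR threshold, as over all 206 rows tested (0%). Of all 206 rows, 109 were above 0, with a median of 0.02. The red cell list had 4 distinct tested rows, all above 0, with a median log2 fold change of 0.37, and miR-144-5p, made with miR-451a, had its highest levels in IS 2 (4368 CPM) and control 3 (2758 CPM), as miR-142a-5p did. The vessel wall and platelet list had a median of 0.04 over 4 rows, and miR-126a-3p, an endothelial miRNA, was highest in IS 3 (26231 CPM) and control 2 (24423 CPM), as miR-223 was. The liver list had a median of 0.04 over 3 rows, the muscle list 1.55 over 3 rows and the epithelial list 0.56 over 4 rows, all 4 above 0.

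The summed share of the muscle list did not follow the libraries of the members. It was lowest in control 1 (0.0311%) and highest in IS 1 (0.470%), where miR-206-3p held 3485 of 4698 CPM. Within this list, however, miR-133a-3p was highest in control 3 (131 CPM) and IS 2 (123 CPM), as miR-142a-5p was. The labels give no batch or date.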
